A study of Mus musculus with 4 samples.

Results

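Stra6 and Tgm2 are genes known to respond to retinoic acid, and they are the 2 genes described here out of the 282 genes of the deposited table. They were picked by symbol, from a table that the authors had already restricted to genes differing between YFP-positive and YFP-negative regulatory T cells (Tregs). The contrast between these populations therefore chose both genes, and its values are given as a description, without a test. RNA was sequenced from 4 Treg libraries, 2 for each population, with titles that give mouse numbers 1 and 2 to both. Tregs were taken from lymph nodes and spleen of males aged 6 to 8 weeks, all of the line Foxp3RFP-Cre.RosaYFPMll1fl/fl. In this line RFP and Cre follow the Foxp3 gene, YFP at the Rosa locus marks cells in which Cre has acted, and the Mll1 alleles are floxed. The sorted RFP+YFP+ cells carry the genotype label MLL1KO and the RFP+YFP- cells the label WT, so both groups share the floxed line, Foxp3-driven Cre and the reporter. The labels do not say why Cre had acted in some Foxp3-expressing cells and not in others. Loss of MLL1 and any other difference between cells with and without Cre action therefore cannot be told apart in this contrast. Each population was 300000 cells at a purity above 95%. The labels do not say whether a mouse number is 1 animal or a pool, so the spread below is that between these libraries. The Treg markers Foxp3, Il2ra, Ctla4 and Ikzf2 were not among the 282 genes and have no value here, and Mll1 (Kmt2a) was not analysed. Neither the deletion nor the cell identity was therefore checked.

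Retinol, the transport form of vitamin A, circulates bound to RBP4, and STRA6 is the membrane receptor through which cells can take it up. Inside cells, dehydrogenases turn retinol into retinal and then into retinoic acid, which binds RAR and RXR nuclear receptors on response elements made of a repeated 6-base core. In the gut, retinoic acid from dendritic cells favours the conversion of CD4 T cells to Tregs and the display of gut homing receptors. Tgm2 encodes tissue transglutaminase, a calcium-dependent enzyme that crosslinks proteins through glutamine and lysine side chains and also binds GTP, and it is a classical retinoic acid target in myeloid and other cells. MLL1 is a histone H3 lysine 4 methyltransferase that recognises unmethylated CpG-rich DNA.

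Stra6 (ENSMUSG00000032327) lies on chromosome 9, 58063788 to 58153996 of mm10, plus strand, and is protein coding. GENCODE M21 gives it 14 transcripts, and RefSeq (GRCm38.p6) supplied 4 promoter windows, each from 250 bases before to 50 bases after a start. They are shown as annotated promoter sequence of the member with the larger difference. They bear on both names of interest, retinoic acid response elements and CpG content. Their starts lie 65.3 to 70.9 kilobases after the annotated 5′ end of the gene, and no window covers that end. The window with the most CpG dinucleotides and the window with the only such core found are printed, plus strand, 5′ to 3′, and capitals mark GGGCGG in the first and the core AGTTCA in the second.

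Stra6 window chr9:58129099-58129398: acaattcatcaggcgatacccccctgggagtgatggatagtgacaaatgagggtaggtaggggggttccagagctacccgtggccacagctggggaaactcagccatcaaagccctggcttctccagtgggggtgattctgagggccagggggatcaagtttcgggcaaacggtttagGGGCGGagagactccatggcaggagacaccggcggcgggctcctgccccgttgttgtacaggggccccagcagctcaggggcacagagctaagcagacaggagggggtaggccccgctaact

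Stra6 window chr9:58133825-58134124: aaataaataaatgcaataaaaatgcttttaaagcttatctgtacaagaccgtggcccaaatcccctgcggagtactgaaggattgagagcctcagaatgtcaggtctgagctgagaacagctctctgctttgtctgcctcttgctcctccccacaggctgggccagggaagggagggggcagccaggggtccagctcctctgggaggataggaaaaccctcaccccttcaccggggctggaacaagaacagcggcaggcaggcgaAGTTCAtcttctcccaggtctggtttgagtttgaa

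The core of a retinoic acid response element was searched on both strands as AGGTCA, with G also allowed as the first letter and T as the third. The AGTTCA match starts 15 bases after the annotated start and was the 1 core in the 4 windows, whereas 43.7% of all 32851 RefSeq promoter windows of the same length hold at least 1. Direct repeats of this core with a spacer of 1, 2 or 5 bases were in 0 of the 4 windows, and in 0.222%, 0.268% and 0.0974% of all windows. TATAAA was also in 0 of the 4 windows, against 13.6% of all. GGGCGG, the core of the site bound by Sp-family factors, was found in the printed window chr9:58129099-58129398, 72 bases before the start, and in 2 of the other windows, against 35.7% of all. The CpG count was 10 in that window and 5 in each of the others, around a median of 7 over all windows, and 58.6% of all windows held 10 or fewer. These matches describe letters within short windows and say nothing of binding, nor of the sequence at the annotated 5′ end of Stra6, which was not searched. For Tgm2 (ENSMUSG00000037820, chromosome 2, 158116402 to 158146436, minus strand, protein coding) no promoter is printed.

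Stra6 was close to the floor of the counts in YFP-negative Tregs and well above it in YFP-positive Tregs. Its normalized count, the authors' read count divided by a size factor for each library, was 166 in YFP-positive mouse 1 and 151 in YFP-positive mouse 2, and 9.80 and 2.70 in YFP-negative mice 1 and 2. The groups did not overlap, and the lowest YFP-positive value was 15.4 times the highest YFP-negative value. As group values, these were 158 ± 11.2 and 6.25 ± 5.02 (SD, n = 2 each), 25.4 times higher in YFP-positive Tregs. On the log2(value + 1) scale, which understates differences of low genes, limma gave a difference of 4.66 ± 0.62 (SE). The size leaned on the low YFP-negative values, with 5.43 without YFP-negative mouse 1 and 3.88 without YFP-negative mouse 2.

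Tgm2 was detected in both populations and was higher in YFP-positive Tregs by a smaller factor. Its normalized count was 88.4 and 166 in YFP-positive mice 1 and 2, and 22.5 and 34.2 in YFP-negative mice 1 and 2. Both YFP-positive values lay above both YFP-negative values, the lowest being 2.59 times the highest YFP-negative one. The group values were 127 ± 55.2 and 28.4 ± 8.23 (SD, n = 2 each), a 4.49-fold difference, and limma gave 2.09 ± 0.53 (SE) on the log2(value + 1) scale. In bulk RNA, more cells with a transcript and more transcript per cell cannot be told apart.

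**Figure D1:**
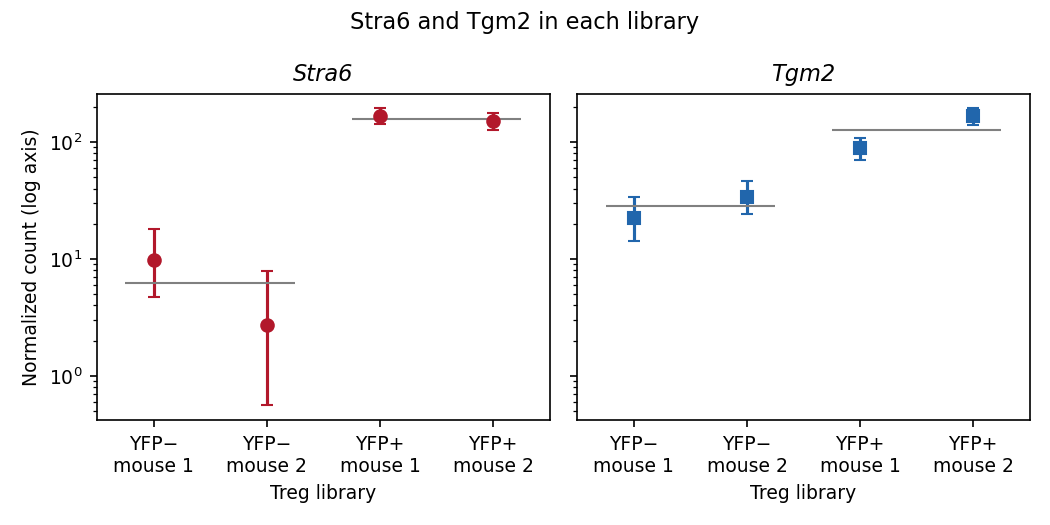
Normalized counts of Stra6 (circles) and Tgm2 (squares) on a log axis, 1 point for each Treg library, with grey lines at the group means and bars for the exact 95% Poisson interval of the inferred reads, which covers counting error only. Stra6 sits at 9.80 and 2.70 in the YFP-negative libraries and at 166 and 151 in the YFP-positive ones, and Tgm2 goes from 22.5 and 34.2 to 88.4 and 166.

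The values that put the genes into the table were the authors' own. In the authors' deposited table, Stra6 had a log2 fold change of 4.68 with adjusted p = 3.26e-09, and Tgm2 had 2.16 with adjusted p = 0.0136. By that fold change Stra6 was the 4th and Tgm2 the 31st of 86 genes with the larger value in YFP-positive Tregs, whose median was 1.79 in the authors' deposited table. Every listed gene met the authors' rule (100% of 282), and 30.5% of them were higher in YFP-positive Tregs. Also in 100% of the listed genes the 2 groups did not overlap, so the separation of Stra6 and Tgm2 is a property of the list and nothing is read from it.

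**Figure D2:**
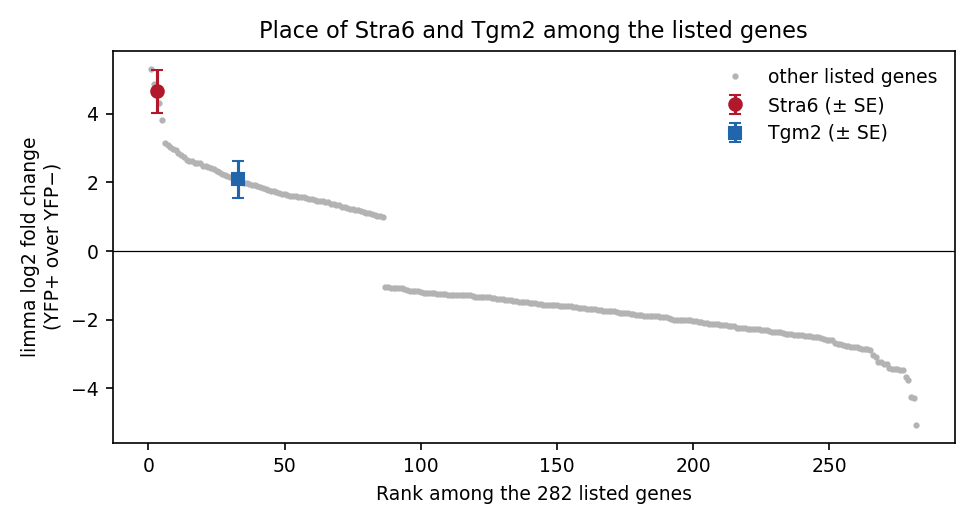
The limma log2 fold change (YFP-positive over YFP-negative, from log2(normalized count + 1)) of all 282 listed genes, in order, with Stra6 and Tgm2 marked and their SE as bars. Among the 86 higher genes, Stra6 stands 3rd from the top at 4.66 and Tgm2 33rd at 2.09. The empty band around 0 comes from the authors' selection.

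Within each mouse number, Stra6 differed between the populations by unequal factors that rest on few YFP-negative reads. The values were whole multiples of 1 step per library, from which reads were inferred, and the counting intervals below hold only as far as these inferred reads are the true counts. Stra6 had 160 and 142 reads in YFP-positive mice 1 and 2, and 10 and 3 reads in YFP-negative mice 1 and 2. The ratio of normalized counts was 17.0 in mouse 1, with an exact 95% counting interval of 8.99 to 36.1, and 55.8 in mouse 2, with an interval of 18.7 to 274. These intervals overlap, so on the inferred reads the ratios of the mice could not be told apart at this depth. As differences of normalized counts the mice were closer, at 157 in mouse 1 and 148 in mouse 2.

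For Tgm2 the ratio was 3.92 in mouse 1 (85 against 23 reads, exact 95% counting interval 2.45 to 6.51) and 4.87 in mouse 2 (157 against 38 reads, interval 3.40 to 7.13). The ratios lay within each other's counting intervals, while the level itself was higher in mouse 2 in both populations. The YFP-positive value of mouse 2 was 1.88 times that of mouse 1, and the YFP-negative value 1.52 times. Stra6, in contrast, had its higher value in mouse 1 in both populations, 1.11 times that of mouse 2 among YFP-positive and 3.63 times among YFP-negative libraries. The exact 95% Poisson interval of the Tgm2 count was 70.6 to 109 in YFP-positive mouse 1 and 141 to 195 in YFP-positive mouse 2, so on the inferred reads these libraries differed beyond counting error. For Stra6 the intervals overlapped, 4.70 to 18.0 in YFP-negative mouse 1 against 0.557 to 7.89 in YFP-negative mouse 2. Counting intervals leave out variation between animals and sorts, and reads without molecular identifiers are not independent molecules.

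The gaps between the 2 libraries of a population were set beside those of all listed genes, without matching on reads. On the log2(value + 1) scale, the gap between the YFP-positive libraries was 0.14 for Stra6 and 0.91 for Tgm2, around a median of 0.44 over the 282 genes. The gap between the YFP-negative libraries was 1.55 for Stra6 and 0.58 for Tgm2, around a median of 0.35. A gap at least as wide as that of Stra6 was present in 5 of 282 genes among the YFP-negative libraries, and one at least as wide as that of Tgm2 in 49 of 282 among the YFP-positive libraries, each count including the member itself. The YFP-negative gap of Stra6 lay between 10 and 3 inferred reads, where the median listed gene had 320 and 347 in mice 1 and 2. Its place among the gaps therefore does not separate unsteady expression from counting error.

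The 2 levels were compared per kilobase of gene length, taken as 5829 bases for Stra6 and 4608 bases for Tgm2 from the file. In YFP-negative Tregs, Tgm2 was above Stra6 in both libraries, with normalized counts per kilobase of 4.89 against 1.68 in mouse 1 and 7.42 against 0.463 in mouse 2. In YFP-positive Tregs the order was not the same in both libraries, with Stra6 at 28.5 and Tgm2 at 19.2 per kilobase in mouse 1, and 25.8 and 36.1 in mouse 2. With the length of the longest coding transcript instead (3077 and 3596 bases), Stra6 was also the higher in YFP-positive mouse 2, at 48.9 against 46.3. The 2 genes are therefore not ordered in YFP-positive Tregs. Both genes were low among the listed genes in YFP-negative Tregs. Per kilobase, Stra6 ranked 277th and 279th from the top of 282 in mice 1 and 2, and Tgm2 260th and 254th. In YFP-positive Tregs, Stra6 ranked 166th and 178th and Tgm2 184th and 158th, still below the median of the listed genes, which was 41.7 and 51.0 normalized counts per kilobase in these libraries. Listed genes were selected for their difference, so these ranks do not place either gene among all genes of a Treg.

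The gene models bear on how securely the reads belong to each member. The exons of Stra6 share 0 bases with the exons of Ccdc33, on the opposite strand, and of Gm16131, on the same strand, which both overlap its long first part. Of the 50-base stretches of its longest coding transcript, 0 of 3028 occur in a transcript of another gene. Tgm2 lies against Rprd1b and Gm20412 on the opposite strand. Of its 4608 exon bases, 1003 (21.8%) are also exon of one of these genes, and 18.8% of the 50-base stretches of its longest coding transcript occur there on the other strand. The strand setting of the counting is not given in the sources used here. Without strand, reads from these stretches could not be told apart between Tgm2 and its neighbours, which were not analysed here, so that part of the Tgm2 count is uncertain.

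**Figure D3:**
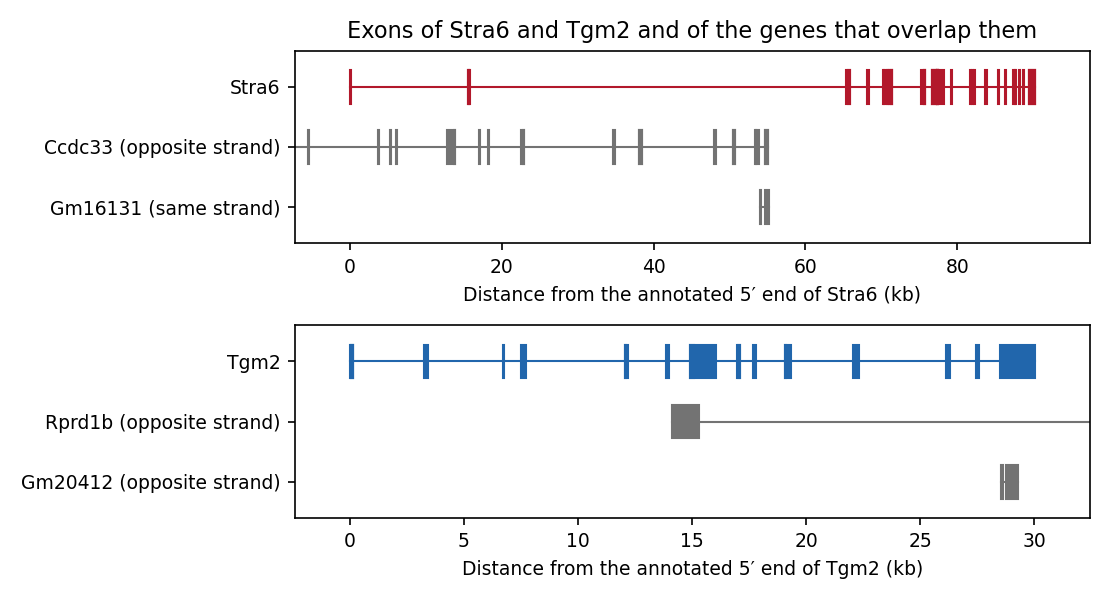
Exons (boxes) of Stra6 and Tgm2 and of the annotated genes that overlap them, by distance in kilobases from each member's annotated 5′ end, in GENCODE M21. The exons of Stra6 are clear of Ccdc33 and Gm16131, whereas Rprd1b and Gm20412 reach into 21.8% of the exon bases of Tgm2.

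No other gene of the retinoid lists can be read from this table. Of 52 genes in 6 retinoid lists, 2 were in the table, Stra6 and Tgm2 themselves. Both stood in the lists as members, with their higher values in YFP-positive Tregs already known. Their shared direction, beside 30.5% higher among all listed genes, is therefore no result about retinoid genes. Retinoid-linked genes outside these lists were not looked for. Of 9 genes for retinol uptake and carriage, Stra6 was the 1 present, so Lrat, whose enzyme stores retinol as esters, has no value here. None of 17 genes that oxidise or reduce retinol and retinal was listed, among them Rdh10 and the Aldh1a genes that make retinoic acid. The counts were also 0 of 3 for the Cyp26 genes, which break retinoic acid down, 0 of 3 for its intracellular carriers and 0 of 12 for the receptors and their partners. Of 16 genes known to respond to retinoic acid, 14 were not listed, including Rarb, Dhrs3, Ccr9 and Itga4. Tgm2 was the 1 of 8 transglutaminase genes present, and 0 of 10 known partners of the enzyme at the cell surface or in the matrix, such as Fn1 and Sdc4, were listed. A gene outside the list has no value here, and its absence is no measure of likeness between the groups.

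The few listed markers of other cell types differed between the populations in both directions. Of 42 marker genes of Tregs, other T cells and 7 other cell classes, 5 were in the table. Pecam1, the 1 of 4 endothelial or stromal markers present and also a gene of leukocytes, had normalized counts of 1443 and 1340 in YFP-positive mice 1 and 2, and 552 and 658 in YFP-negative mice 1 and 2. Of 5 erythroid or platelet markers, Gata1 and Car2 were present and differed in opposite directions. Gata1 had 679 and 833 in YFP-positive mice 1 and 2, and 132 and 141 in YFP-negative mice 1 and 2. Car2 had 56.2 and 82.7, and 197 and 294, in the same order. Igkc, the 1 of 5 B cell markers present, was at 249 to 280 in YFP-positive and 1072 to 1503 in YFP-negative libraries, and Gzma, the 1 of 4 natural killer cell markers, at 7.28 to 37.1 and 109 to 253. The monocyte or macrophage list, cells in which Tgm2 is known to be abundant, had 0 of 6 genes in the table. The part of such cells in the Stra6 and Tgm2 values was not tested. The 5 listed markers were not traced to cells of their class, and 1 or 2 genes do not measure a class.

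By position, only the nearest listed gene of each member was looked up, and whether either belongs to a run of listed genes was not tested. The nearest listed gene to Stra6 on chromosome 9, which held 24 listed genes, was Zc3h12c at a distance of 5895215 bases, and it was lower in YFP-positive Tregs, with a limma log2 fold change of -1.38 ± 0.41 (SE). Pml, whose fusion with the retinoic acid receptor alpha gene drives promyelocytic leukaemia, lies 64079 bases from Stra6 and was not listed. The nearest listed gene to Tgm2 on chromosome 2, with 34 listed genes, was Lbp, which encodes the lipopolysaccharide-binding protein, 160056 bases away on the opposite strand (158306493 to 158332852). Its normalized counts were 72.8 and 36.1 in YFP-positive mice 1 and 2, and 9.80 and 6.30 in YFP-negative mice 1 and 2. Lbp was thus also higher in YFP-positive Tregs, without overlap of the groups, as for 100% of listed genes, and its limma log2 fold change was 2.56 ± 0.68 (SE).

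Likeness of pattern was measured as the Euclidean distance between log2(value + 1) profiles over the 4 libraries, each centred on its gene's mean. The 5 genes closest to Stra6 were Ntn4, Selp, Tcrg-C4, Ly6c2 and Gbp11, at distances of 0.52, 1.01, 1.12, 1.58 and 1.67. Ntn4, which encodes the basement membrane protein netrin 4, had normalized counts of 51.0 and 57.3 in YFP-positive mice 1 and 2, and 2.94 and 0.900 in YFP-negative mice 1 and 2. Selp, the P-selectin gene, had 60.3 and 43.5, and 3.92 and 1.80, in the same order. Like Stra6, both were nearly at the floor in YFP-negative Tregs, where 1 read more or less moves the distance. Tcrg-C4 is a constant segment of the T cell receptor gamma chain, Ly6c2 encodes a Ly6C antigen, and Gbp11 is annotated as a polymorphic pseudogene of the guanylate-binding family.

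Among the 5 genes closest to Tgm2 were AC165079.1, an unnamed transcript model on chromosome 6 (120502296 to 120503894), Tmem121b and Gm11346, at distances of 0.28, 0.56, 0.60 and 0.62. AC165079.1, a processed pseudogene of the ribosomal protein gene Rpl15, had normalized counts of 67.6 and 108 in YFP-positive mice 1 and 2, and 12.7 and 21.6 in YFP-negative mice 1 and 2. Tmem121b, which encodes a transmembrane protein, had 148 and 163, and 33.3 and 38.7, in the same order. In both genes, as in Tgm2, mouse 2 was above mouse 1 in both populations. They had been chosen for closeness over these same libraries, so the shared order is no separate result. The unnamed model and Tmem121b (120488939 to 120493807) lie near each other on chromosome 6. Stra6 and Tgm2 were not close to each other by this measure. The profiles were not scaled, so it includes the unequal sizes of their differences, 4.66 and 2.09 by limma. Their distance was 3.07, and 37 genes other than Stra6 itself were closer to Stra6 than Tgm2 was.

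**Figure D4:**
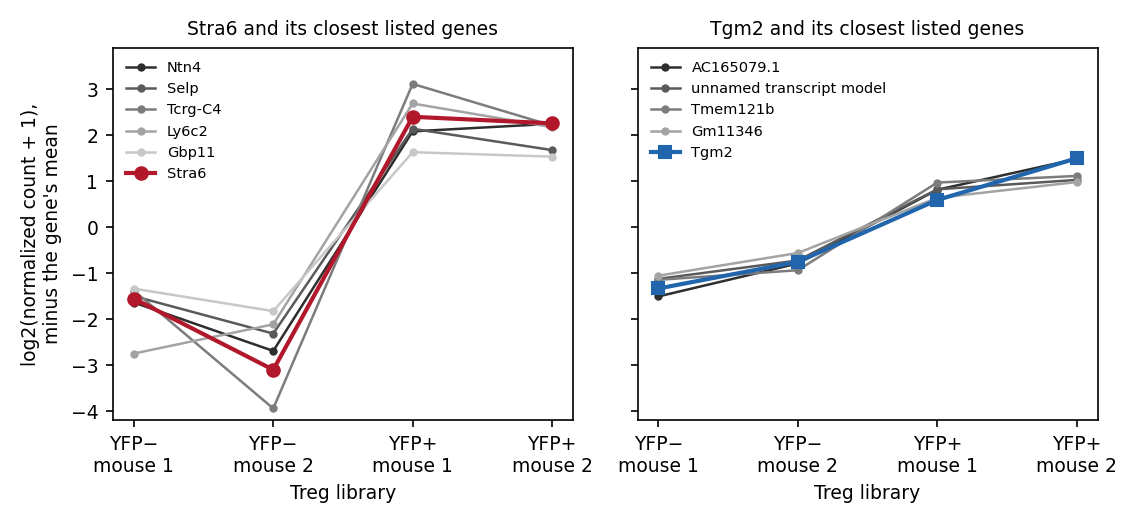
Centred log2(normalized count + 1) over the 4 Treg libraries for Stra6 (circles, left) and Tgm2 (squares, right), with 5 and 4 of the closest listed genes in grey, darker for closer. Stra6 and its neighbours differ mainly between populations, with YFP-negative mouse 2 lowest in most. Tgm2 and its neighbours also stand higher in mouse 2 than in mouse 1 in both populations. Neighbours were chosen for closeness over these same libraries, so shared patterns follow from the choice.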

How the data were processed

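The tools in the submitters' processing notes are DESeq2 1.16.1, featureCounts 1.5.0-p3, StringTie 1.3.3b and HISAT2 2.0.5, with mm10, and the design text names DEGSeq 1.16.1. The sources used here give no strand setting, annotation or treatment of multiply mapped reads. Signal values in the deposited table are gene counts that the authors divided by a size factor per library. In each library 100% of 282 values were multiples of 1 step, to within 0.001 reads, which gave the inferred reads, although only 13 to 40 values per library were of up to 20 reads. The listed genes held 196337 to 329350 inferred reads per library, which is not the libraries' depth. The log2 fold changes, p-values and adjusted p-values of the deposited table are the authors' own. Gene lengths of the file equalled the union of GENCODE M21 exons for 259 of 282 genes.

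A fold change with its SE came from limma 3.58.1 (R 4.3.3) on log2(value + 1) with a variance trend over all 282 genes, without the mouse as a block, and no p is given for a member. Tested on simulated data for YFP-positive against YFP-negative libraries with 282 genes, this fit called 65.7% of 67 genes changed by 1 on the log2 scale and 3.66% of 82 unchanged genes. The simulation had the same dispersion for every gene, means raised above the floor and no mouse effect. Its rates are therefore not those of the fit on the deposited values. Poisson and binomial intervals are exact, at 95%. The members and gene lists were chosen with earlier results of these data known. Named genes were the members, listed genes of the fixed lists, the 5 closest profiles and the nearest listed gene of each member, of which 1 is not reported here. Pml and genes overlapping a member were named for their position, and examples of unlisted genes from the fixed lists. Promoters are from RefSeq (GRCm38.p6), in which only Stra6 of the 2 members was matched. An edgeR test on inferred reads had been planned and was not run, because too few low values were present to establish those reads as counts across the table. The exact intervals rest on the same inferred reads and share this limit.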

Additional observations from a re-analysis of the deposited data

How the results depend on the processing

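The direction of both members' differences was the same under each alternative run. Because the groups of both genes do not overlap, none of these fits could have changed it, so nothing is read from it. For Stra6 the limma log2 fold change was 4.91 with a pseudocount of 0.1, and it ran from 3.88 (without YFP-negative mouse 2) to 5.43 (without YFP-negative mouse 1) when 1 library was left out. On the linear scale these values differ by more than 1.5 times, and they rest on the 10 and 3 reads of the YFP-negative libraries. For Tgm2 it was 2.12 with a pseudocount of 0.1, and it ran from 1.63 (without YFP-positive mouse 2) to 2.54 (without YFP-positive mouse 1), with 1.80 and 2.38 without YFP-negative mice 1 and 2. A library left alone in its group has no spread of its own and takes that of the remaining pair. With the mouse number as a replicate block the fold changes were the same by construction, 4.66 ± 0.53 and 2.09 ± 0.37 (SE), and 279 of 282 genes were called by limma in place of 282. Deviations of same-numbered libraries from their group means correlated over 282 genes, with Spearman's rho = 0.411 and Pearson's r = 0.395 (genes are not independent replicates), but the labels do not state what a number marks. Of 282 genes tested in the main fit, 86 were called higher. With a mean of at least 50 reads, 255 genes were tested and 255 called, 76 of them higher, so the smaller number comes from the filter. The listed genes had already been selected on this contrast. Per kilobase of the longest coding transcript, a length chosen after the data were seen, the log2 ratio of Stra6 to Tgm2 in YFP-positive mouse 2 was 0.080 in place of -0.48, since the transcript of Stra6 is much shorter than its summed exons. The edgeR fit and RefSeq transcript lengths were not run.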

Other observations

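Stra6 was 1 of 9 genes, among the 86 that were higher in YFP-positive Tregs, whose mean normalized count in YFP-negative Tregs was under 10, and 1 of 2 of these with a mean above 100 in YFP-positive Tregs. These limits were chosen after the values were seen. The other of the 2 was Tcrg-C4, at 101 against 2.45. The remaining 7 were Gbp11, Trpm1, Lbp, Ntn4, Wfdc2, Selp and Zcchc24. Trpm1, a cation channel gene best known in melanocytes and retinal bipolar cells, had normalized counts of 55.1 and 90.1 in YFP-positive mice 1 and 2, and 9.80 and 8.10 in YFP-negative mice 1 and 2. Wfdc2, which encodes a secreted whey acidic protein domain factor of epithelia, had 70.7 and 36.1 in YFP-positive and 4.90 and 9.0 in YFP-negative mice 1 and 2. Zcchc24, a zinc finger gene, had 36.4 and 49.8 against 4.90 and 4.50. Whether few cells or many carried their transcripts cannot be told from bulk RNA.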
